A study of Mus musculus with 16 samples.

Results

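Pdk4, Angptl4, Ucp3, Acot1, Acot2 and Cpt1a are genes that rise in fasting through the nuclear receptor PPAR alpha. The 6 genes were taken by symbol from a table of 13842 genes, and all 6 passed the filter on low counts that kept 13504 genes for testing. They were selected on measured values, namely the lower counts of Pdk4 and Angptl4 after coronary ligation in C57 mice and the wide spread of their counts among controls. Their values in the C57 ligation comparison, and every comparison that shares those libraries, are therefore given as a description with no test. The rule of choice did not use the fold changes of the DBA ligation comparison, which were tested. It did use the spread among controls, which enters the errors and p-values of that test, so these are not independent of the choice.

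PPAR alpha is activated by fatty acids and, as a partner of the retinoid X receptor, switches on genes for taking up and burning fat. In the heart, which draws most of its energy from fatty acids, its targets rise when fatty acids in the blood rise, as in fasting. PDK4 shuts off glucose oxidation by phosphorylating the pyruvate dehydrogenase complex. ANGPTL4 is a secreted inhibitor of lipoprotein lipase, UCP3 is a carrier of the inner mitochondrial membrane, ACOT1 and ACOT2 split long-chain acyl-CoA in the cytosol and in mitochondria, and CPT1A is the liver form of the enzyme that passes fatty acids into mitochondria.

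PolyA RNA came from hearts of female mice aged 3 months, 4 mice and 4 libraries in each of 4 groups. The groups were untreated DBA/2J mice (DBA), DBA mice 2 weeks after permanent ligation of a coronary artery, untreated C57Bl6/N mice (C57) and ligated C57 mice. The strain label is C57Bl6N for both C57 groups, but the sample names read C57Bl-6NCR for the controls and C57Bl-6N for the ligated mice, so a difference in substrain or source cannot be told apart from ligation in C57. The controls had no sham surgery, so infarct and surgery cannot be told apart, and the ligated samples are described as remote from the infarct. The septum is named as the tissue throughout, together with the right ventricle in the series' design text and the left ventricle in the sample labels. The sources used here do not give feeding state or hour of harvest.

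Libraries held 4.92 to 22 M counts (mega-counts), and 3 control libraries were under 9 M, namely DBA controls 3 and 4 and C57 control 1 (the shallow libraries in the following). Levels are counts scaled to the adjusted library total (CPM, with the total set to 1 M), as mean ± SD with n = 4 mice, and fold changes are log2 with their standard error (SE). Adjusted p is that of the quasi-likelihood test of edgeR, by the Benjamini-Hochberg method over 13504 genes, and a gene was called at an adjusted p under 0.05. The SE was derived from the F statistic of that test, as the absolute log2 fold change over the square root of F. In DBA, 1859 genes were called lower and 1501 higher (44.7% of calls higher), and in C57 818 and 978 (54.5% higher). With library totals in place of TMM scaling, 79.1% of the DBA calls (821 lower, 3105 higher) and 79.8% of the C57 calls (426 lower, 1680 higher) were higher, and over all genes the median log2 fold change went from 0.03 to 0.19 in DBA and from 0.02 to 0.13 in C57. Markers of cardiomyocytes fit the labelled tissue, with Myh6 at 29287 to 58518 CPM in the 16 libraries.

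In DBA mice, ligation was followed by a fall of both acyl-CoA thioesterase genes. Acot2 fell by 1.09 on the log2 scale (SE 0.21, adjusted p = 0.00451) and Acot1 fell by 0.96 (SE 0.32, adjusted p = 0.0353). Pdk4 and Ucp3 had negative changes of a like size that missed the threshold, and Angptl4 and Cpt1a changed by less than their errors. Thus 2 of the 6 genes were called lower in DBA, beside 13.8% of all genes called lower and 11.1% called higher. The count of genes called ran from 0 of 6 without the shallow libraries to 4 of 6 without DBA control 1, when Pdk4 and Ucp3 were called as well. For none of the 6 genes did the 4 ligated DBA libraries lie wholly below the 4 controls, a pattern that 12.4% of all genes showed. In C57 mice 5 of the 6 genes, all but Cpt1a, had every ligated library below every control, beside 12.7% of all genes. That contrast was used in the choice, so nothing is read from the count.

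**Figure D1:**
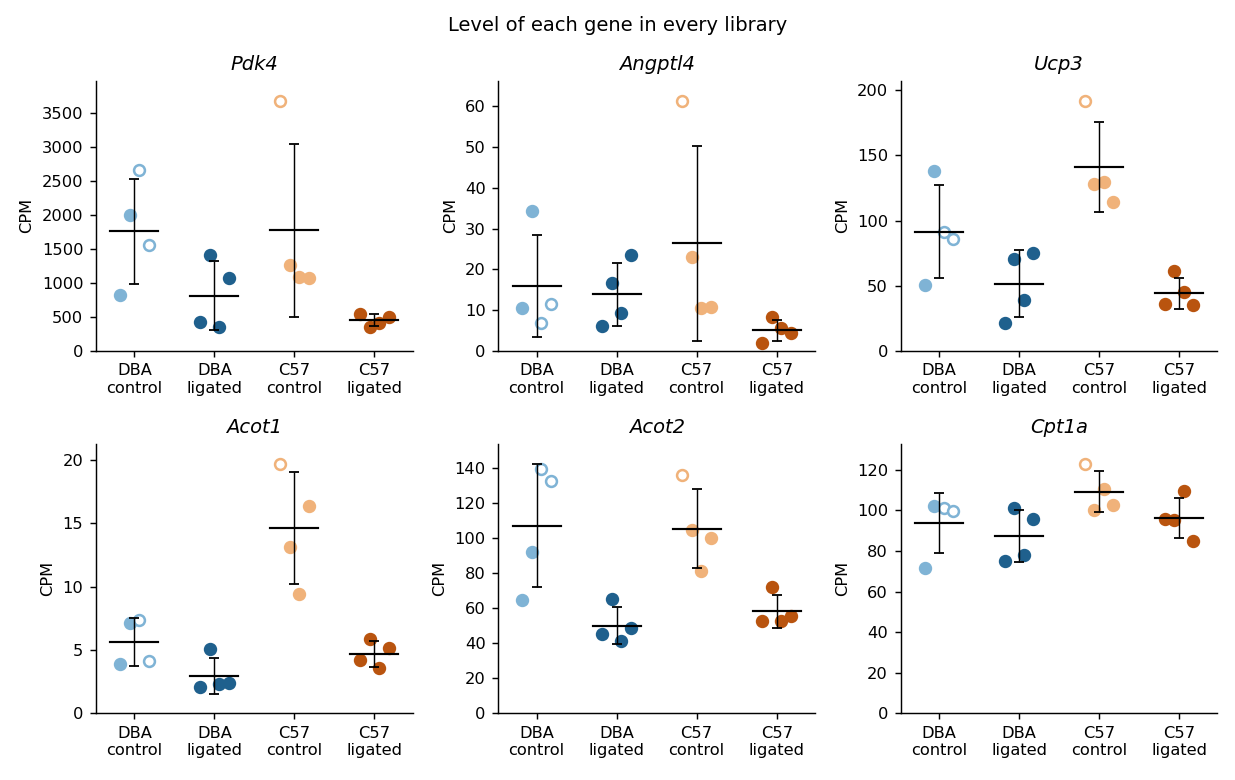
Levels of the 6 genes in CPM (linear axis from 0) in the 16 libraries, by group. Points are mice, open points are libraries under 9 M counts, the wide bar is the mean and the error bar the SD of 4 mice. In C57 the control and ligated points are apart for every gene but Cpt1a, with Pdk4 at 1073 to 3684 CPM in controls and 347 to 544 CPM after ligation, while in DBA they overlap for all 6.

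Pdk4, on mm10 at chr6:5483351-5496278 on the minus strand, was the most abundant of the 6. Its exon length is 3453 bases, and scaled by that length (FPKM, reads per kilobase of exon within each CPM) it stood at 510 ± 224 in DBA controls and 514 ± 369 in C57 controls. DBA controls 1 to 4 had 823, 2007, 2660 and 1560 CPM, and after ligation the DBA libraries 1, S40, S41 and S42 had 428, 1406, 356 and 1066 CPM. After ligation in DBA, S40 and S42 lay within the control range and the others below it. The log2 fold change was -1.11 ± 0.46 (SE, 95% interval -2.07 to -0.16, unadjusted), and the adjusted p of 0.0798 missed the threshold. It passed in edgeR without DBA control 1 (-1.35, adjusted p = 0.0404), without S40 (-1.51, adjusted p = 0.0377) and without C57 control 1, which shares the estimate of spread (-1.11, adjusted p = 0.04).

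In C57, Pdk4 was at 3684, 1261, 1087 and 1073 CPM in controls 1 to 4 and at 544, 347, 404 and 492 CPM in ligated libraries 1 to 4. Control 1 stood far above the other controls, and the ligated libraries were close together. The log2 fold change was -1.99 ± 0.47 (SE), and -1.35 without control 1 or without the 3 shallow libraries. From high to low, the group means were 1776 ± 1274 in C57 controls, 1762 ± 773 in DBA controls, 814 ± 507 in ligated DBA and 447 ± 88.1 CPM in ligated C57, and neighbouring groups in this order overlap.

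Angptl4, at chr17:33774900-33781575 on the minus strand, was at 10.6, 34.3, 6.87 and 11.5 CPM in DBA controls 1 to 4. After ligation it was at 5.96, 16.5, 9.19 and 23.5 CPM in DBA libraries 1, S40, S41 and S42. The groups span the same range, with the highest value in control 2. The log2 fold change was -0.28 ± 0.59 (SE, 95% interval -1.52 to 0.95, adjusted p = 0.745 with edgeR), and without DBA control 2 it was 0.52 (adjusted p = 0.568). The interval takes in no change as well as a fall as large as that of Acot2.

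In C57 controls 1 to 4, Angptl4 was at 61.3, 22.9, 10.6 and 10.7 CPM, and in ligated libraries 1 to 4 at 1.85, 8.25, 5.54 and 4.28 CPM. The lowest of these values rests on 41 reads. The log2 fold change was -2.41 ± 0.64 (SE) and lay at -1.58 without C57 control 1. The order of group means was 26.4 ± 24 in C57 controls, 15.8 ± 12.5 in DBA controls, 13.8 ± 7.83 in ligated DBA and 4.98 ± 2.66 CPM in ligated C57, with overlap between all neighbours.

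Ucp3, at chr7:100472991-100486432 on the plus strand, was at 50.6, 138, 91.4 and 85.6 CPM in DBA controls 1 to 4. After ligation, libraries 1, S40, S41 and S42 had 21.5, 70.5, 38.9 and 75.4 CPM. As for Pdk4, S40 and S42 lay within the control range and the other ligated libraries below it. The log2 fold change was -0.83 ± 0.33 (SE, 95% interval -1.54 to -0.13, adjusted p = 0.0751 with edgeR) and passed the threshold without DBA control 1 (-1.04, adjusted p = 0.0309).

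C57 controls 1 to 4 had 192, 128, 130 and 115 CPM of Ucp3, and C57 ligated libraries 1 to 4 had 35.9, 60.9, 44.9 and 35.1 CPM. The groups are far apart, and the log2 fold change was -1.67 ± 0.34 (SE). The group means fell in the order 141 ± 34.6 in C57 controls, 91.4 ± 35.8 in DBA controls, 51.6 ± 25.8 in ligated DBA and 44.2 ± 12 CPM in ligated C57, and neighbours overlap. The annotated gene Gm10603 overlaps the first part of Ucp3, up to base 100474846, on the opposite strand, and since the strand setting of the counting is not given, reads of the pair cannot be told apart there.

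PPAR alpha with its partner binds a pair of AGGTCA half-sites spaced by 1 base (DR1, AGGTCANAGGTCA). RefSeq promoter windows on GRCm38.p6, from 250 bases before to 50 after the start, were matched for 5 of the 6 genes, all but Angptl4. Both strands were searched for the half-site, DR1, the glucocorticoid half-site AGAACA and the FoxO element TGTTTAC, and a DR1 match also holds half-site matches. Ucp3 and Cpt1a are shown because they are the members with a half-site and lie far apart in their response, each for the 250 bases before the start, 5′ to 3′ on the gene's strand, with the half-site (or its reverse complement) in capitals.
Ucp3, chr7:100472741-100472990, plus strand: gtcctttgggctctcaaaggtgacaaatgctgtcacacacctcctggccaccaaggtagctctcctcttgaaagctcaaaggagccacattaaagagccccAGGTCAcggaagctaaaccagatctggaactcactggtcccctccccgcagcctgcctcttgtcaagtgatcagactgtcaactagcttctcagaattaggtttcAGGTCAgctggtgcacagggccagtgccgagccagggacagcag
Cpt1a, chr19:3323051-3323300, plus strand: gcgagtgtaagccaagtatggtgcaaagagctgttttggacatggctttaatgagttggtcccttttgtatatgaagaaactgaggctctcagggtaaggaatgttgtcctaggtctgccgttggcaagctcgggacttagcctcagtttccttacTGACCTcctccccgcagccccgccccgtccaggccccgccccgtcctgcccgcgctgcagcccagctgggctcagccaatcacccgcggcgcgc
In Ucp3 the half-sites begin at -149 and -44 from the start on the gene's strand, and in Cpt1a 1 begins at -94 on the other strand. Acot1 had an AGAACA match at -171 on the other strand, Pdk4 and Acot2 had no match to any of the motifs, and no DR1 was found in the 5 windows. Of 32851 windows of the same length, 16.3% hold the half-site, 0.0396% DR1, 19% AGAACA and 3.65% TGTTTAC. A match describes letters only, and a window without one says nothing of binding elsewhere.

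Acot2, at chr12:83987861-83993875, and Acot1, at chr12:84009502-84017669, lie in a row on the plus strand of chromosome 12, 15626 bases apart. They are near copies, which bears on how reads are counted. Of the 50-base words of the annotated transcript, 24.5% in Acot2 also occur in Acot1, 23.7% in Acot1 also occur in Acot2, and 33.6% of the Acot1 words occur in any other gene. The Acot1 transcript used holds 2272 bases and its counted exons 1558, so its words include bases that were not counted. The word length was set without the read length, which is not given. The likeness shows in exon 2, a coding exon of 203 bases that is 98% identical between the genes on mm10. It is printed 5′ to 3′ with the 4 differing bases in capitals.
Acot1 exon 2, chr12:84014379-84014581, plus strand: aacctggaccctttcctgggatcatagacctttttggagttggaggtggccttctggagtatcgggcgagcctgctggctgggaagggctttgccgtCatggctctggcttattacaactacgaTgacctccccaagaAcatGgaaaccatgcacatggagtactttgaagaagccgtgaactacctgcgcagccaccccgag
Acot2 exon 2, chr12:83990494-83990696, plus strand: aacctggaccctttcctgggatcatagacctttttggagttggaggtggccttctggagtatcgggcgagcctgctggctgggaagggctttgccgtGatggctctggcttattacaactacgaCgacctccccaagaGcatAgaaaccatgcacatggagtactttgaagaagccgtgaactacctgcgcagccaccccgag
Acot2 was the more abundant, at 48.8 ± 16.1 FPKM in DBA controls against 3.62 ± 1.22 for Acot1, so reads of Acot2 assigned to Acot1 would weigh on Acot1 more than the reverse. The share of such reads was not tested, and the Acot1 values are uncertain to that extent.

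Acot2 was at 64.6, 92.3, 140 and 133 CPM in DBA controls 1 to 4 and, after ligation, at 45.1, 65.1, 41.4 and 48.9 CPM in libraries 1, S40, S41 and S42. The groups overlap by the smallest of margins, S40 against control 1. The 95% interval of the log2 fold change of -1.09 named above runs from -1.54 to -0.64. Without the 3 shallow libraries, which take out both of the highest controls, the change was -0.65 with an edgeR adjusted p of 0.0615. The summed level of 8 cardiomyocyte markers was 95127, 91259, 121105 and 118204 CPM in DBA controls 1 to 4, and 68529 to 71828 CPM after ligation. Controls 3 and 4, with the most Acot2, thus had the highest sums. They also had the highest sums of fibroblast markers (1567, 1533, 1747 and 2138 CPM in controls 1 to 4) and of fat markers. Their sums of endothelial and macrophage markers were the lowest. The part of cell content, depth or GC content in the fall of Acot2 was not tested. In bulk tissue fewer cardiomyocytes and less RNA per cardiomyocyte cannot be told apart.

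In C57, Acot2 was at 136, 105, 81.6 and 100 CPM in controls 1 to 4 and at 52.8, 72.1, 52.6 and 55.8 CPM in ligated libraries 1 to 4. The groups are apart, and the log2 fold change was -0.85 ± 0.21 (SE). It is the 1 gene of the 6 whose fold change was larger in DBA than in C57, an order that turned without the shallow libraries (-0.65 in DBA, -0.71 in C57). The order of means was 107 ± 35.4 in DBA controls, 106 ± 22.7 in C57 controls, 58.4 ± 9.29 in ligated C57 and 50.1 ± 10.5 CPM in ligated DBA. C57 controls and ligated C57 do not overlap, the other neighbours do.

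Acot1 was at 3.88, 7.13, 7.43 and 4.12 CPM in DBA controls 1 to 4, the last on 19 reads. After ligation it was at 2.11, 5.13, 2.27 and 2.43 CPM, in the same order of libraries. Of the ligated libraries, S40 alone reached into the control range. The fall of 0.96 (95% interval -1.63 to -0.30) was past the threshold by a narrow margin. With edgeR it was no longer called without DBA control 2 (adjusted p = 0.0904) or 3 (0.111), without DBA ligated 1 (0.102), S41 (0.1) or S42 (0.0922), or without the 3 shallow libraries (-0.93, adjusted p = 0.122). Scaling by library totals (-0.81, adjusted p = 0.0591) and a fit of the DBA libraries alone (-0.96, adjusted p = 0.0806) ended the call too.

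In C57, Acot1 was at 19.7, 13.1, 9.37 and 16.4 CPM in controls 1 to 4 and at 4.16, 5.95, 3.57 and 5.21 CPM after ligation, and the log2 fold change was -1.63 ± 0.29 (SE). It is the 1 gene of the 6 whose control libraries differed between the strains without overlap, with 14.6 ± 4.43 CPM in C57 controls and 5.64 ± 1.9 in DBA controls, and a pattern of this kind, lower in DBA, was seen for 9.69% of all genes. The log2 difference, DBA minus C57, was -1.34 ± 0.30 (SE). Ligated C57 followed at 4.72 ± 1.06 and ligated DBA at 2.99 ± 1.43 CPM, each overlapping its neighbour.
Acot3, another thioesterase gene of the cluster, was likewise at 0.308 ± 0.226 CPM in DBA controls (0 to 9 reads) and at 1.81 ± 0.532 CPM in C57 controls (12 to 23 reads). Acot4, which lies between Acot1 and Acot3, was at 0.7 ± 0.333 and 0.779 ± 0.206 CPM, and Acot2 had a strain difference in controls of 0.01 ± 0.21. Reads of both strains were counted on mm10, whose sequence comes from a C57BL/6J mouse.

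Cpt1a, at chr19:3323301-3385733 on the plus strand, was not called. It was at 71.8, 102, 101 and 99.7 CPM in DBA controls 1 to 4 and at 75, 101, 78.2 and 95.6 CPM after ligation, in libraries 1, S40, S41 and S42. The log2 fold change was -0.10 ± 0.12 (SE, 95% interval -0.36 to 0.16, adjusted p = 0.582 with edgeR), an interval that leaves out a change of the size seen for Acot2. With library totals the value was 0.07 and without the shallow libraries 0.00. In C57 it was at 123, 100, 110 and 103 CPM in controls and at 95.5, 95.2, 109 and 84.8 CPM after ligation (-0.18 ± 0.12, SE), and the groups overlap. The 4 group means lay between 87.5 ± 12.8 CPM in ligated DBA and 109 ± 10.2 CPM in C57 controls, and neighbours overlap. Cpt1b, the muscle form and the main form of the adult heart, had only 5 to 47 reads per library, and the annotated gene Gm44502 covers it on the same strand, so its count is uncertain.

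**Figure D2:**
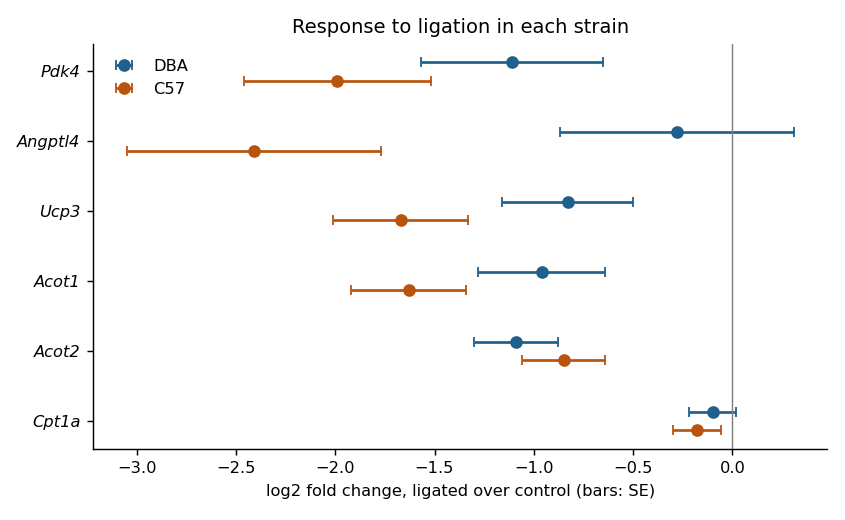
Log2 fold change of ligated over control for the 6 genes in DBA (blue) and C57 (orange), with bars of 1 SE from the fit over 16 libraries. In C57 the values run from -0.18 for Cpt1a to -2.41 for Angptl4, and in DBA from -0.10 for Cpt1a to -1.11 for Pdk4, with Angptl4 at -0.28.

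The authors' deposited table gives for DBA a log2 fold change of -1.11 for Pdk4 with a false discovery rate (FDR) of 0.0451 and of -0.83 for Ucp3 with an FDR of 0.0465. Both are thus just under 0.05 in the authors' deposited table, where the adjusted p here was 0.0798 and 0.0751. For Acot1 and Acot2 the authors' deposited table has an FDR of 0.0147 and 3.92e-05, and for Angptl4 and Cpt1a 0.816 and 0.613. In C57 the fold changes in the authors' deposited table were within 0.01 of those given here for each of the 6 genes.

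The difference of the responses, DBA minus C57, was 2.12 ± 0.86 (SE) for Angptl4, 0.88 ± 0.64 for Pdk4, 0.84 ± 0.47 for Ucp3, 0.66 ± 0.43 for Acot1, 0.08 ± 0.18 for Cpt1a and -0.23 ± 0.30 for Acot2. These are descriptions, since the C57 response chose the set. Over all genes, edgeR called none for this difference (0% of 13504), and DESeq2 called 16. With edgeR 782 had an unadjusted p under 0.05, not far above the count that chance alone gives at that threshold. Without the shallow libraries the value was 0.85 for Angptl4, 0.55 for Pdk4 and 0.06 for Acot2. Without C57 control 1 alone it was 1.30 for Angptl4 and 0.24 for Pdk4, and without S40 it was 0.48 for Pdk4 and 0.30 for Acot1. After ligation, DBA was above C57 by 1.5 ± 0.63 for Angptl4 and 0.86 ± 0.45 for Pdk4 (0.46 without S40), and the values were 0.22 ± 0.33 for Ucp3, -0.68 ± 0.31 for Acot1, -0.22 ± 0.21 for Acot2 and -0.14 ± 0.12 for Cpt1a. The libraries of the strains overlap for each of the 6.

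Some mice were high or low for most of the 6 genes. C57 control 1 had the highest value of its group for all 6 genes. Among the ligated DBA mice, S40 and S42 were the upper pair for all 6, and DBA control 1 was the lowest of its group for 5, all but Angptl4. The ligated C57 mice had no such order, since library 2 was highest for 4 genes but lowest for Pdk4. Ucp3 and Angptl4 lay on the same side of their group mean in 14 of 16 libraries, Ucp3 and Cpt1a in 13, and both Pdk4 with Acot2 and Acot1 with Cpt1a in 9. In ligated C57, Pdk4 shared its side with Angptl4 in 0 of 4 libraries and with Ucp3 in 0 of 4. These counts share libraries and depth, and carry no test.

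**Figure D3:**
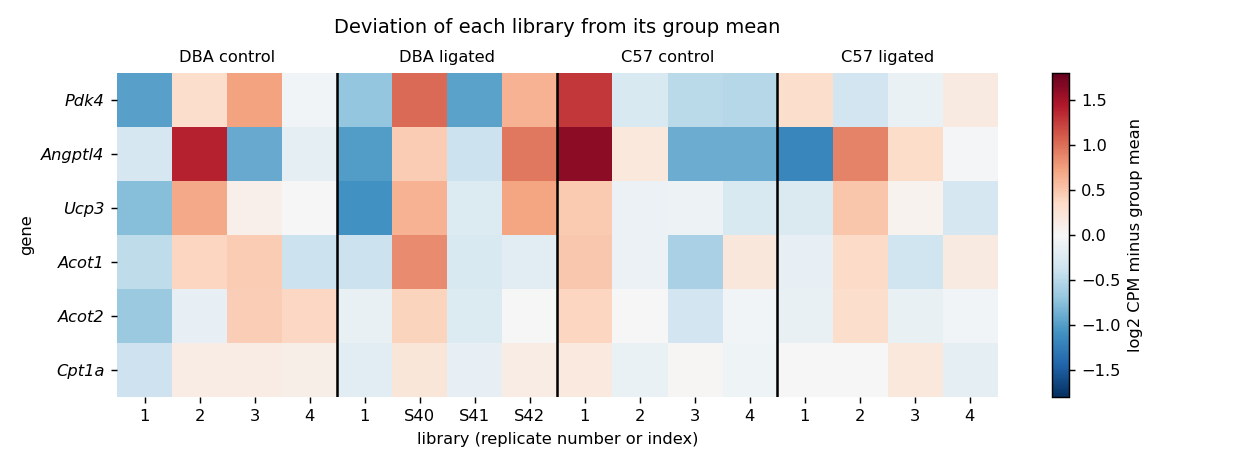
Log2 CPM of each library minus the mean of its group, for the 6 genes (rows) and 16 libraries (columns, by group). Red is above and blue below the group mean, and the column of C57 control 1 is red in every row, up to 1.61 for Angptl4, as that of DBA control 1 is blue, down to -0.98 for Pdk4.

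The spread within groups was far above that of most genes for Pdk4 and Angptl4. In ligated DBA mice the SD of log2 CPM was 0.97 for Pdk4, 0.87 for Angptl4 and 0.84 for Ucp3, where the median gene had 0.12, and this put them at percentiles 99.8, 99.6 and 99.5 of all genes. The spread among controls was part of the choice. In C57 controls it was 1.19 for Angptl4 and 0.85 for Pdk4 beside a median of 0.18. In DBA controls the median gene had a wider spread, 0.29, with Angptl4 at 0.98 (percentile 96.7) and Pdk4 at 0.72 (percentile 91.2). Among ligated C57 mice Pdk4 had an SD of 0.29 (percentile 79.9) while Angptl4 stayed at 0.88 (percentile 99.1). Cpt1a was the steadiest, with an SD from 0.13 to 0.25 in the 4 groups. C57 control 1 is a shallow library and S40 and S42, at 15.1 and 17.2 M counts, are not.

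Genes most like Pdk4 and Angptl4 over the 16 libraries were looked up. The likeness takes in the differences between groups, the C57 fall used in the choice included, as well as those among mice. It is the root mean square (RMS) difference in log2 CPM over 16 libraries, each gene centred on its own mean, among genes of at least 2 CPM. Closest to Pdk4, whose own RMS was 1.03, were Chrna2, an acetylcholine receptor subunit gene, at 0.45, then the members Ucp3 at 0.59 and Acot2 at 0.65, and Kcna1, a potassium channel gene, at 0.68. Chrna2 was at 10.3 CPM in C57 control 1 against 3.84 to 5.51 in the other C57 controls, and at 6.04 CPM in S40 against 1.7 to 2.81 in the other ligated DBA libraries. It thus had the high values of Pdk4 in both of these mice, while S42, at 2.81, was nearer to the low ones.
Closest to Angptl4 (own RMS 1.16) were Txnip, an inhibitor of thioredoxin and of glucose uptake, and Ucp3, both at 0.76, then Sbk2 at 0.79, Kcna1 at 0.80 and Frat1 at 0.83. Txnip was at 1657, 1410, 906 and 745 CPM in C57 controls 1 to 4 and at 316, 753, 656 and 484 CPM in ligated C57 libraries 1 to 4, so that ligated library 1 was lowest for both genes and library 2 highest. In the ligated DBA libraries Txnip was even, at 539 to 609 CPM, where Angptl4 ran from 5.96 to 23.5.

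The wider list of PPAR alpha target genes, with the 6 genes taken out, had mostly negative changes after ligation in both strains. Of its 44 tested genes, 20 were called lower and 2 higher in DBA, with a median log2 fold change of -0.33 where all genes had 0.03, beside 13.8% of all genes called lower and 11.1% called higher. With library totals 12 were lower and 5 higher in DBA, and 15 and 1 in C57. In C57, 19 were called lower and 0 higher, with a median of -0.37 where all genes had 0.02, beside 6.06% of all genes called lower and 7.24% called higher. The genes called lower in both strains numbered 15. The share of all genes called lower in both is not given here, so nothing is read from that count. In DBA the calls of either direction came to 11 without control 3, 14 without ligated 1 and 13 without S42, and in C57 to 10 without ligated 1 and 12 without ligated 3.

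Hadha, of the trifunctional protein of beta-oxidation, fell by 0.38 in DBA and 0.63 in C57, and Decr1, a reductase for unsaturated fatty acids, fell by 0.61 and 0.55 (adjusted p = 0.0235, 0.00292, 0.0027 and 0.00356 with edgeR). Acsl1, which makes acyl-CoA, fell by 0.46 and 0.52, and Fbp2, the muscle fructose bisphosphatase, by 0.74 and 0.77. Me1, the cytosolic malic enzyme, and Lpin1, a lipin, fell in DBA by 0.56 and 0.51 and were not called in C57 (-0.21 and -0.16). Lpin2 and Aldh3a2 were the genes called higher in DBA.

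**Figure D4:**
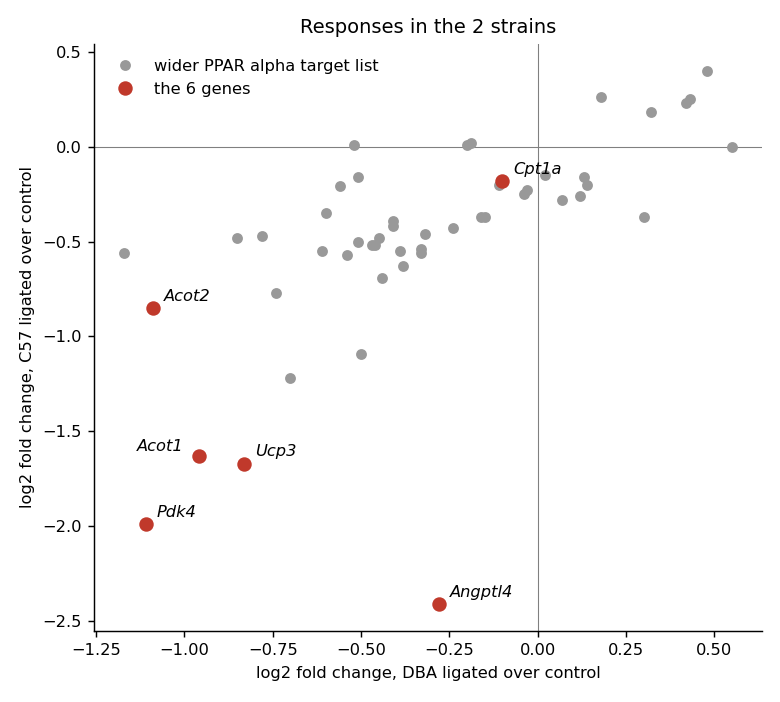
Log2 fold change of ligated over control in DBA (x axis) against C57 (y axis) for the 6 genes (red, named) and the 44 other PPAR alpha target genes tested (grey). The grey points run from -1.17 to 0.55 in DBA, and 29 of them are negative in both strains, a count without the share over all genes beside it. Pdk4, Angptl4, Ucp3 and Acot1 lie below the lowest grey point in C57, the contrast used in the choice, so nothing is read from this. None of the 6 genes lies below the lowest grey point in DBA.

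The receptors themselves had small values. Ppara was at 119 ± 18.4 CPM in DBA controls and 101 ± 16.2 after ligation (-0.23 ± 0.14, edgeR adjusted p = 0.225), and at 169 ± 25.6 and 141 ± 20.1 CPM in C57 (-0.27 ± 0.14, adjusted p = 0.212). Ppard and Rxra were not called in either strain, at 0.24 and 0.08 in DBA and 0.24 and -0.12 in C57. Ppargc1a, a coactivator that drives mitochondrial genes, fell from 248 ± 98.8 to 121 ± 13.2 CPM in DBA (-1.03 ± 0.21, adjusted p = 0.00526) and from 232 ± 34.6 to 148 ± 22.9 CPM in C57 (-0.65 ± 0.21, adjusted p = 0.0468), with libraries apart in both. Of 24 receptors, partners and coregulators, 9 were called lower in DBA and 3 in C57, and 0 higher in either, with medians of -0.19 and -0.15. That is 37.5% and 12.5% called lower, beside 13.8% and 6.06% of all genes. With library totals the calls were 8 lower and 2 higher in DBA, and in C57 they turned to 0 lower and 2 higher. Among those called in DBA were Prkaa2, a catalytic subunit of AMP kinase, at -0.60, the nuclear receptor gene Esrrg at -0.71 and the coactivator gene Ncoa2 at -0.37. Rxrg and Sirt1, a deacetylase gene, were called in C57 at -0.31 and -0.37. Klf15, a transcription factor gene of the fasting response, was at -0.64 in C57 (adjusted p = 0.0506) and -0.18 in DBA.

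Of 13 other genes that control pyruvate dehydrogenase, 8 were called lower and 1 higher in DBA (median -0.23), and 3 lower and 0 higher in C57 (median -0.17). The share called lower was 61.5% in DBA and 23.1% in C57, beside 13.8% and 6.06% of all genes, and with library totals 4 were lower and 2 higher in DBA and 2 lower and 1 higher in C57. Pdk2 fell from 708 ± 94.5 to 455 ± 18.9 CPM in DBA and from 745 ± 122 to 478 ± 93.3 CPM in C57, by 0.64 in each (edgeR adjusted p = 0.00642 and 0.00737), with libraries apart. Pdk1 fell by 0.33 and 0.35 and the subunit gene Pdha1 by 0.34 and 0.31. Dld and Pdpr, of the complex and its phosphatase, fell in DBA by 0.68 and 0.36 and were at -0.42 and -0.16 in C57, where neither was called. Pdk3, at 3.47 ± 0.151 CPM in DBA controls, rose by 0.74 ± 0.17 in DBA (adjusted p = 0.00939) and was at 0.54 ± 0.18 in C57 (adjusted p = 0.0521). Unlike Pdk4, Pdk2 was even among the ligated DBA mice, at 464, 475, 431 and 451 CPM.

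Among 18 genes around lipoprotein lipase, the target of ANGPTL4, 5 were called lower and 1 higher in DBA (median -0.00), and 3 lower and 1 higher in C57 (median -0.04). The share called lower was 27.8% and 16.7%, beside 13.8% and 6.06% of all genes. In DBA the calls became 3 lower and 4 higher with library totals, and 4 and 4 without DBA control 2. Lpl itself fell from 8511 ± 1313 to 4958 ± 216 CPM in DBA and from 10213 ± 983 to 7366 ± 1270 CPM in C57 (-0.78 ± 0.13 and -0.47 ± 0.13, edgeR adjusted p = 0.0027 and 0.0229). Vldlr, a lipoprotein receptor gene, fell by 0.58 and fell by 0.51 (edgeR adjusted p = 0.00426 and 0.00784). Apoe was called higher in DBA (0.54) and Angptl2 in C57 (0.37).

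Of 21 thioesterase, carnitine and uncoupling relatives, 4 were called lower and 3 higher in DBA (median -0.11), and 2 lower and 1 higher in C57 (median -0.02). The share called lower was 19% and 9.52%, beside 13.8% and 6.06% of all genes, and with library totals the calls were 2 lower and 4 higher in DBA and 2 and 2 in C57. The carnitine carrier gene Slc25a20 fell by 0.41 and 0.39 and the acetyltransferase gene Crat by 0.47 and 0.52 (edgeR adjusted p = 0.00597, 0.00813, 0.00745 and 0.00561). Both are also counted in the list of PPAR alpha target genes, which holds Cpt1b, Cpt2 and Ucp2 too. Other lists share genes with it as well, such as Lpl, Lpin1 and Txnip, so the counts of the lists are not separate. Cpt1c rose by 1.00 and 0.79 from 1.33 ± 0.44 and 1.49 ± 0.257 CPM, and the peroxisomal Acot8 rose in DBA by 0.89. Acot4 and Acot6 of the chromosome 12 cluster were not called, at -0.60 and -0.17 in DBA and 0.26 and -0.41 in C57, and Acot3 was at 0.21 and -1.26 (adjusted p = 0.817 and 0.0588). Acot5 was not found by symbol among the 13842 genes. Cpt2 was at -0.15 and -0.37, Cpt1b at -0.44 and -0.69, none called, and Ucp2 fell in DBA by 0.52 (adjusted p = 0.0397) and was at 0.01 in C57.

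Of 30 other genes of fasting, FoxO and glucocorticoid action, 5 were called lower and 2 higher in DBA and 4 lower and 0 higher in C57, with a median of -0.17 in each. The share called lower was 16.7% and 13.3%, beside 13.8% and 6.06% of all genes. The direction was not steady, with 2 lower and 2 higher in DBA with library totals, 2 lower and 5 higher in the fit of DBA alone, and 1 lower and 4 higher in C57 with a replicate block. Insr, the insulin receptor gene, fell by 0.46 and 0.32, with overlapping libraries in C57. In DBA the muscle ubiquitin ligase gene Trim63 fell by 0.58 and Klf9, a glucocorticoid target, by 0.42, the latter with overlapping libraries. The transcription factor gene Cebpd rose there by 1.12. In C57 Gabarapl1, an autophagy gene, fell by 0.37, Txnip fell by 1.09 and Zbtb16, a glucocorticoid-induced gene, fell by 1.28 (edgeR adjusted p = 0.00675, 0.017 and 0.0405). The C57 libraries overlap for both Txnip and Zbtb16. Zbtb16 was at 55.4, 62.7, 287 and 162 CPM in C57 controls 1 to 4, so the controls low in Pdk4 and Angptl4 were the high ones here.

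Markers of other cell types moved with ligation too. The summed cardiomyocyte markers were at 110774 to 121198 CPM in C57 controls and 80912 to 101759 after ligation. Of these 8 markers, 6 were called lower in DBA (75%, median -0.60) and 5 in C57 (62.5%, median -0.46), beside 13.8% and 6.06% of all genes. Both medians lie below those of every wider list above. Macrophage markers were at 119 to 155 and 177 to 198 CPM in DBA and at 101 to 113 and 137 to 187 CPM in C57, and fibroblast markers at 1533 to 2138 and 1985 to 2341 CPM in DBA and 948 to 1213 and 1203 to 1925 CPM in C57. Endothelial markers were at 956 to 1211 and 1324 to 1484 CPM in DBA, where 2 of 5 rose, and at 1193 to 1395 and 1436 to 1495 CPM in C57, where 0 of 5 were called. Atrial muscle markers had the largest median, -2.37 in DBA, where 3 of 4 fell and the sum was at 40.3 to 97.3 CPM in controls and 12 to 27.1 after ligation. In C57 their median was -1.44, with 0 of 4 called and sums of 7.49 to 96.6 and 3.89 to 45.2 CPM. Of the markers of fat, a tissue rich in Angptl4, Adipoq lay between 0.0637 and 1.52 CPM over the 16 libraries, and in C57 control 1, the library highest in Angptl4, at 0.134. Plin1 lay at 0.0743 to 1.95 CPM. The summed list of 6 tested fat markers takes most of its level from Fabp4, which endothelial cells also express. This sum was at 763 to 978 CPM in C57 controls, highest in C57 control 1 at 978, and at 590 to 728 after ligation. In DBA the sum was at 698 to 1039 and 631 to 756 CPM. Of these 6 fat markers, 0 were called in DBA (median -0.79) and 1 was called lower in C57 (median -0.99). The skeletal muscle markers tested, 3 of 7, summed to at most 2.8 CPM in any library, and the myosin genes Myh1, Myh2 and Myh4 were not found by symbol among the 13842 genes. The part of the shifts of these markers in the results for the 6 genes was not tested.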

How the data were processed

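The authors deposited whole-number read counts per gene for 16 libraries, not normalized, per the file headers. Per the submitters' processing notes, STAR 2.5.2b was the aligner, mm10 the genome, featureCounts of Subread 1.5.1 the counter, and edgeR is named. The sources used here do not give the strand setting, the annotation or the read length. The authors' log2 fold changes and FDR p-values stand in the same deposited table, as do gene lengths. Another 16 columns per sample were not used. RNA was extracted with RNeasy Plus Mini and made into libraries with KAPA mRNA Hyperprep, per the labels' protocols. In 3 DBA ligated columns (S40, S41, S42) the mouse number differs from the labels, so they entered the group without a number.

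The counts were fitted with edgeR 4.0.16 (R 4.3.3) over all 16 libraries with a mean per group, after edgeR's filter by group and TMM scaling, with the robust quasi-likelihood test (prior degrees of freedom 5.45, two-sided), and the procedure was tested on simulated data. FPKM was computed from CPM and the deposited length. GC content was available for 99.5% of genes. Alternatives were library totals, DESeq2 1.42.0 and its size factors, no filter, fits within a strain, a GC correction, a replicate block, and leaving out each library or the shallow ones. Named are the 6 genes, up to 4 genes per list and strain with the smallest p, a set of regulators and paralogs, the 5 genes most like Pdk4 and Angptl4, and the markers. Some genes that this rule names are not reported here. Lpin2 and Aldh3a2 were chosen after their values were seen. The members and lists were chosen with earlier results of these data known. Exons come from GENCODE M21 on GRCm38 (mm10) and promoters from RefSeq. Replicates are separate mice per the labels. Intervals are for the difference between group means and do not give the range of single mice.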

Additional observations from a re-analysis of the deposited data

Results flagged for a closer look

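In 5 of the 24 groups of 4 libraries (6 genes in 4 groups) 1 library stood far from the rest. A library was flagged when its gap to the nearest other library was a large share of the group's range, in CPM on a linear scale. The cutoff flags about 1 in 20 groups by chance if values are normally distributed, which was not tested for CPM. The rule was not run on log2 CPM, and the flags of Angptl4 and Acot2 lay closest to the cutoff. The groups also share libraries, and a wide spread of Pdk4 and Angptl4 among controls was part of the choice of genes. The count is therefore a description, with no comparison to chance. Pdk4 was at 3684 CPM in C57 control 1, the other C57 controls at 1073 to 1261. Angptl4 was at 34.3 CPM in DBA control 2, the other DBA controls at 6.87 to 11.5. Acot1 was at 5.13 CPM in DBA ligated S40, the other ligated DBA libraries at 2.11 to 2.43. Acot2 was at 72.1 CPM in C57 ligated 2, the others of that group at 52.6 to 55.8. Cpt1a was at 71.8 CPM in DBA control 1, the other DBA controls at 99.7 to 102.

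C57 control 1 has 8.22 M counts (mega-counts), and the rank correlation of its gene deviations with GC content, across genes, was -0.33. For DBA controls 1 and 2 it was 0.445 and 0.491, and for the shallow DBA controls 3 and 4 it was -0.298 and -0.465, of the opposite sign. For S40 and C57 ligated 2 it was -0.0778 and 0.153. The part of depth and GC content in these values was not tested beyond the alternatives given under the processing.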

How the results depend on the processing

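In DBA, Acot2 stayed called in each alternative but the fit without the 3 shallow libraries (-0.65). Acot1 was not called with library totals (-0.81, edgeR adjusted p = 0.0591), within the strain (-0.96, adjusted p = 0.0806) and without the shallow libraries (-0.93). Leaving out 1 library in turn gave -1.33 to -0.78 for Acot1, -1.27 to -0.93 for Acot2, -1.51 to -0.85 for Pdk4, -1.07 to -0.54 for Ucp3 and -0.66 to 0.52 for Angptl4, the last positive without DBA control 2. Cpt1a turned to 0.07 with library totals and 0.00 without the shallow libraries. In C57, Pdk4 lay between -2.17 and -1.35 on leaving out 1 library, and at -1.35 without the shallow ones. Genes called in DBA numbered 1648 within the strain, 950 without the shallow libraries and 1318 to 5091 on leaving out 1 library (the extremes without controls 3 and 2), and in C57 2829 without the shallow libraries and 618 to 2854 (without ligated 1 and DBA control 4).

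On leaving out 1 library, calls in DBA were 11 to 24 for PPAR alpha targets, 8 to 14 for receptors and coregulators, 5 to 10 for pyruvate dehydrogenase control, 3 to 8 for lipoprotein lipase control, 4 to 7 for thioesterase relatives and 3 to 8 for fasting genes. In C57 they were 10 to 25 for targets, 0 to 7 for receptors, 1 to 6 for pyruvate dehydrogenase, 2 to 7 for lipase, 2 to 5 for thioesterase relatives and 1 to 7 for fasting genes. Receptors and coregulators had no call in C57 without C57 control 1 or 4 or C57 ligated 1 or 3. Without the shallow libraries C57 calls were 6 for receptors, 6 for thioesterase relatives and 6 for pyruvate dehydrogenase, and DBA calls 3 for thioesterase relatives, 1 for fasting genes and 4 for pyruvate dehydrogenase. The within-strain fit gave 7, 5, 2 and 5 for receptors, thioesterase relatives, fasting genes and pyruvate dehydrogenase in C57 and 3 for thioesterase relatives in DBA. DESeq2 gave 7, 5, 7 and 7 for these lists in C57, the GC correction 5 for receptors in C57, and library totals 4 for fasting genes in DBA. The cause of these shifts was not tested.

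Replicate numbers did not pair the C57 samples (correlations of same-numbered deviations -0.0675 to 0.0102). A replicate block in C57, fitted on the C57 libraries alone, called 1732 genes against 2571 in the same fit without the block and 1796 in the fit over 16 libraries. In DBA, 3 ligated columns carry no label number, so no block was fitted. Low counts limit Acot1, Angptl4 and Acot3, and 4 mice a group limit Pdk4 and Angptl4.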
